A study of Mus musculus with 9 samples.

Results

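The genes described here are the organic ion uptake carriers and the ATP-binding cassette (ABC) transporters of mouse liver, taken as the genes whose symbol is Slc22a, Slco, Abcb, Abcc or Abcg followed by a number. Of the 24008 genes in the count table, 57 met this rule. They comprised 32 uptake genes (Slc22a and Slco) and 25 export genes (Abcb, Abcc and Abcg). Enough reads for a test were counted on 42 of the 57, of which 19 were uptake and 23 were export genes, and on 14379 of all genes. The rule reads symbols, so the export side also holds dimer-forming transporters of mitochondria and lysosomes (Abcb6 to Abcb10) and a pair of potassium channel subunits (Abcc8 and Abcc9).

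Hepatocytes take organic anions, organic cations, carnitine and bile acids from sinusoidal blood through Slc22 carriers and through the organic anion transporting polypeptides (Oatps) that Slco genes encode. ABC pumps use ATP to move bile salts, phospholipid, sterols, conjugates and drugs across the canalicular membrane into bile, and others at the sinusoidal side return conjugates to blood. Slco1a1 is known as a male-predominant gene of mouse liver that depends on growth hormone pulses, and Abcb1a and Abcb1b together encode the mouse multidrug pump P-glycoprotein.

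RNA was sequenced from liver of male mice with NASH (non-alcoholic steatohepatitis), in 3 groups of 3 mice with 1 library each, to ask what muscle IRF4 and the muscle-secreted protein FSTL1 change in liver. Flox mice, whose label reads WT, carry floxed Irf4 with no deletion, F4MKO mice lack Irf4 in skeletal muscle (IRF4 flox/flox crossed with Myl-Cre, on C57BL/6J), and F4MKO+FSTL1 mice are F4MKO mice that received AAV8 with FSTL1 under the muscle MCK promoter in the gastrocnemius, 4 weeks before collection. All groups ate a diet high in fat and carbohydrate, with added cholesterol and with fructose and glucose in the water, from 8 weeks of age. The methods give 24 weeks of this diet in one passage and 12 weeks in another, and they place AAV-GFP in the Flox and F4MKO mice, which the labels do not name. The design has no FSTL1 vector in Flox mice and no lean mice, so every value below is from steatotic liver.

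Libraries held 20656976 to 24322984 reads counted on genes. CPM below are read counts scaled to a common library size by TMM, which multiplies each library's total by a factor that centres most genes (0.927 to 1.17 here). Marker genes fit the labelled tissue. The 5 listed markers (Alb, Apoa1, Ttr, Apob and Fgb) summed to between 67400 and 97166 CPM in every library, whereas kidney tubule markers summed to at most 0.209 CPM and skeletal muscle markers to at most 1.51 CPM. The Irf4 deletion is in muscle, so liver counts do not check the genotype. Whole liver was sequenced, and a lower value can come from fewer cells of a type or from less RNA per cell, which cannot be told apart.

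Levels can be set against each other between genes only per length, so CPM were divided by the merged exon length in kb (GENCODE vM21). On this scale, the uptake gene Slco1b2 (Oatp1b2, a carrier of bile acids and statins) stood at 183 ± 17.7 CPM per kb in Flox liver (SD, n = 3). Slc22a18 stood at 68.1 ± 4.66, Slco1a1 at 45.5 ± 3.99, Slc22a30 at 37.9 ± 1.36 and Slco2b1 at 29.3 ± 1.53 CPM per kb. Over the 31 uptake genes reported here, Slco1b2 made up 42.7% to 48.5% of the summed level in each library. Among export genes Abcb11, the bile salt export pump, was highest at 99.1 ± 8.96 CPM per kb in Flox liver, followed by the sterol transporters Abcg5 (68.6 ± 17.4) and Abcg8 (49.6 ± 12.4) and the phospholipid floppase Abcb4 (48.0 ± 6.74). The last 3 overlapped in their spread. Abcb11, Abcg5, Abcg8 and Abcb4 held 58.5% to 63.8% of the summed export level in each library. At the other end, 15 genes had too few reads for a test (13 uptake and 2 export), with at most 24 reads in any library. They included the kidney carriers Slc22a6 and Slc22a2, with at most 1 read in each library.

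**Figure D1:**
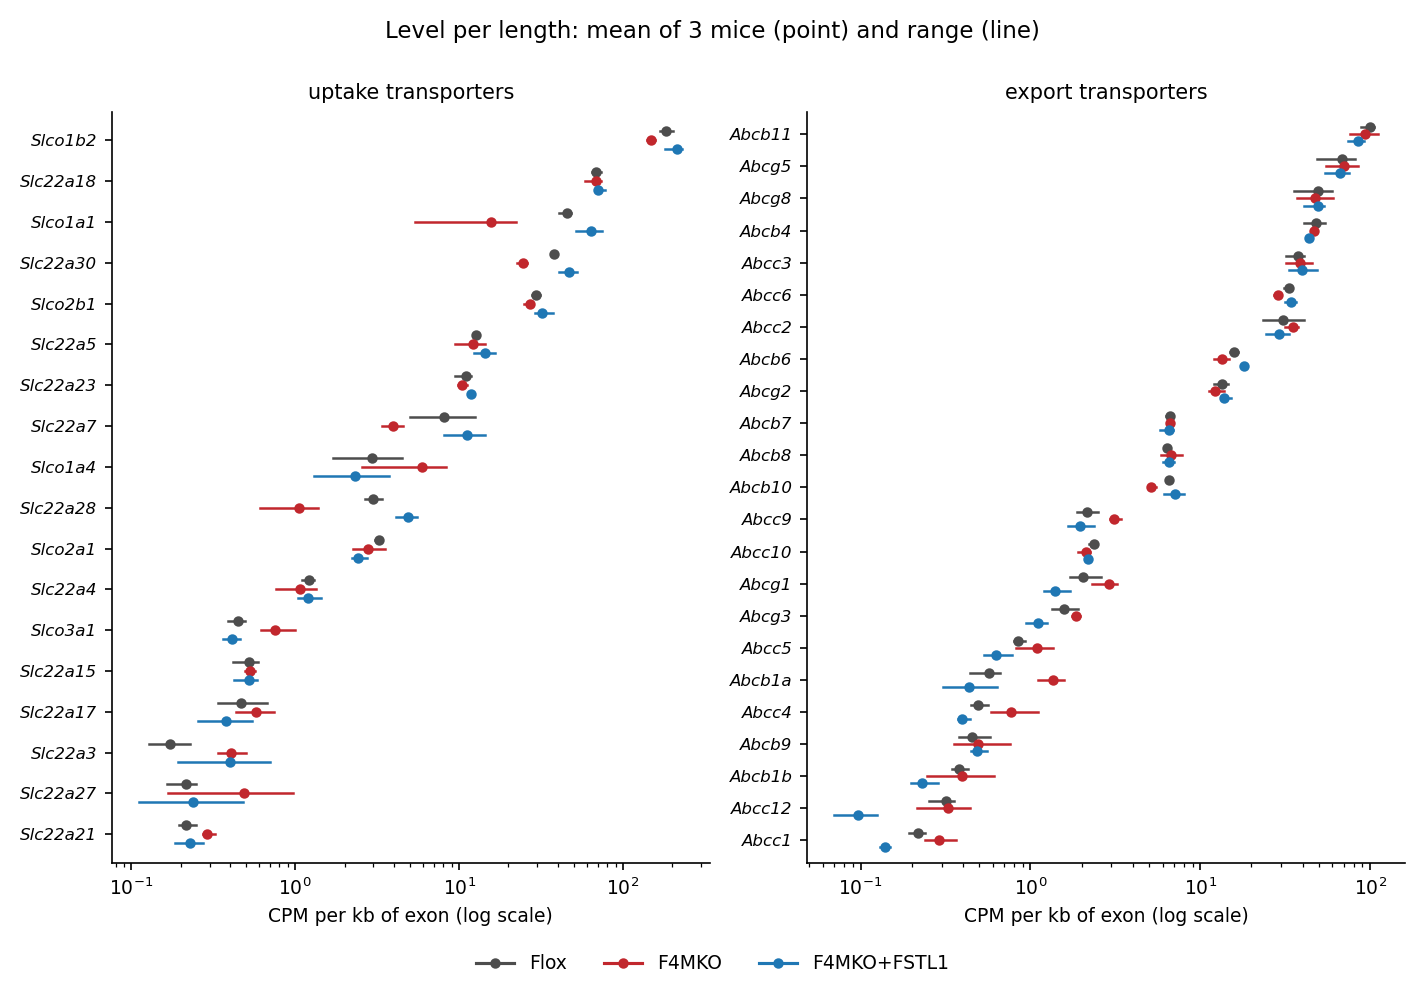
Level of the tested uptake genes (left) and export genes (right) reported here in CPM per kb of exon, on a log scale, ordered by the mean over the 9 libraries. Points are group means and lines run from the lowest to the highest of 3 mice; Slco1b2 and Abcb11 head the panels, and Slco1a1, Slc22a28 and Slc22a7 have their F4MKO line below the other groups.

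As a sum, the uptake genes were lower in F4MKO liver and higher after FSTL1, whereas the export genes overlapped between groups. The summed level of the 31 uptake genes was 389 to 428 CPM per kb in Flox, 320.2 to 328 in F4MKO and 418 to 511 in F4MKO+FSTL1 libraries, and F4MKO was below both other groups, which overlapped. The F4MKO mean was 79.4% of Flox, and the F4MKO+FSTL1 mean was 147% of F4MKO. The difference of -83.9 CPM per kb between F4MKO and Flox was made up mainly by Slco1b2 (-34.9), Slco1a1 (-29.9) and Slc22a30 (-13.5). The same genes held 63.8, 47.9 and 22.3 of the 151.7 CPM per kb between F4MKO and F4MKO+FSTL1. In contrast, the summed export level was 401 to 468 CPM per kb in Flox, 385 to 476 in F4MKO and 390 to 439 in F4MKO+FSTL1 libraries, and all groups overlapped. These sums are descriptions with no test, and they follow the few genes of highest level.

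**Figure D2:**
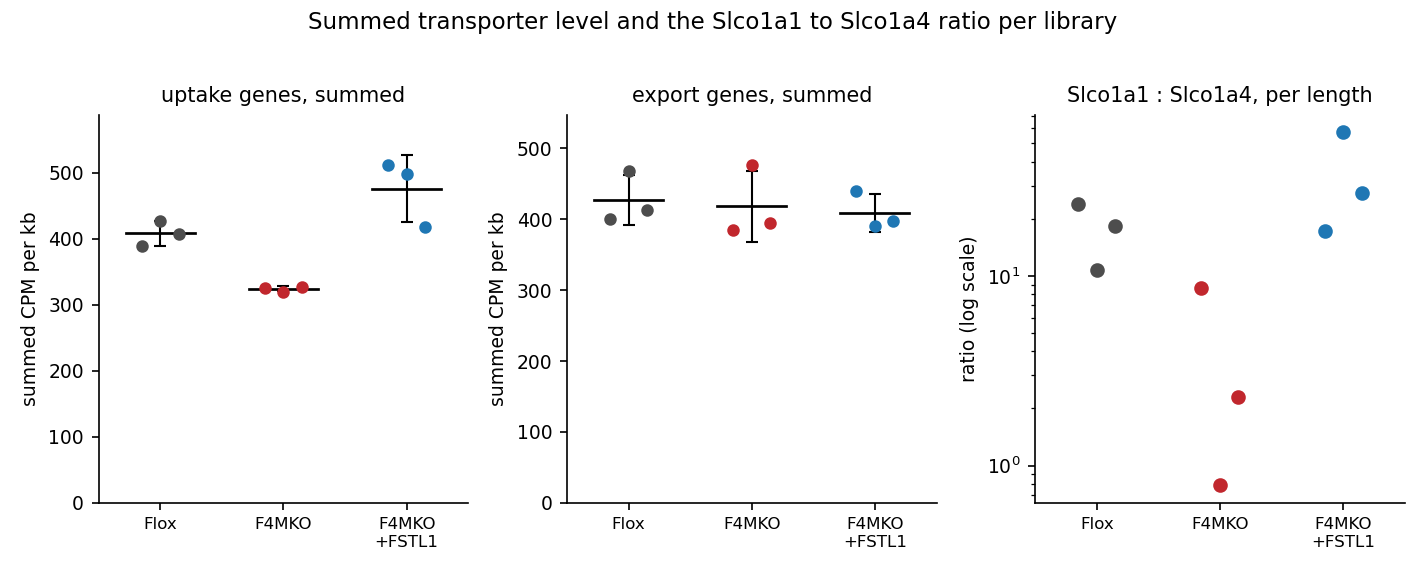
Summed level of 31 uptake genes (left) and all 25 export genes (middle) in CPM per kb, and the ratio of Slco1a1 to Slco1a4 per length on a log scale (right), by group. Points are libraries, and in the first 2 panels bars are the mean ± SD of 3 mice; the summed uptake level lies at 320.2 to 328 in F4MKO, below both other groups, and the export sums overlap.

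A gene was called when its Benjamini-Hochberg adjusted p was under 0.05 over all 14379 tested genes and its fold change was above 1.5, by edgeR's quasi-likelihood test on all 9 libraries. Between F4MKO and Flox, 2 of 42 tested transporter genes were called, both on the uptake side and both lower, where 0.271% of all genes were called and 0.0695% were called lower. No export gene was called, although 7 of 23 had an unadjusted p under 0.05, as had 16.9% of all genes, and DESeq2 called 1, Abcb1a. Between F4MKO+FSTL1 and F4MKO, 13 of 42 were called, where 14.4% of all genes were called. On the uptake side 4 of 19 were higher and 1 was lower, beside 3.21% of all genes called higher and 11.2% called lower, and on the export side 8 of 23 were lower and none was higher. No transporter gene was called between F4MKO+FSTL1 and Flox, where 0.00695% of all genes were called. There 9 of 42 had an unadjusted p under 0.05 (13.4% of all genes), and DESeq2 called 1, Abcc12. Groups did not overlap for 16, 21 and 12 of the 42 genes in these comparisons, beside 21.8%, 39.0% and 18.2% of all genes. The median log2 fold change of tested uptake genes was -0.07, 0.17 and 0.13, and that of export genes was 0.05, -0.09 and -0.11, beside medians of at most 0.01 in size over all genes. F4MKO libraries enter both of the first comparisons, so a high or low F4MKO library moves both values of a gene in opposite directions.

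**Figure D3:**
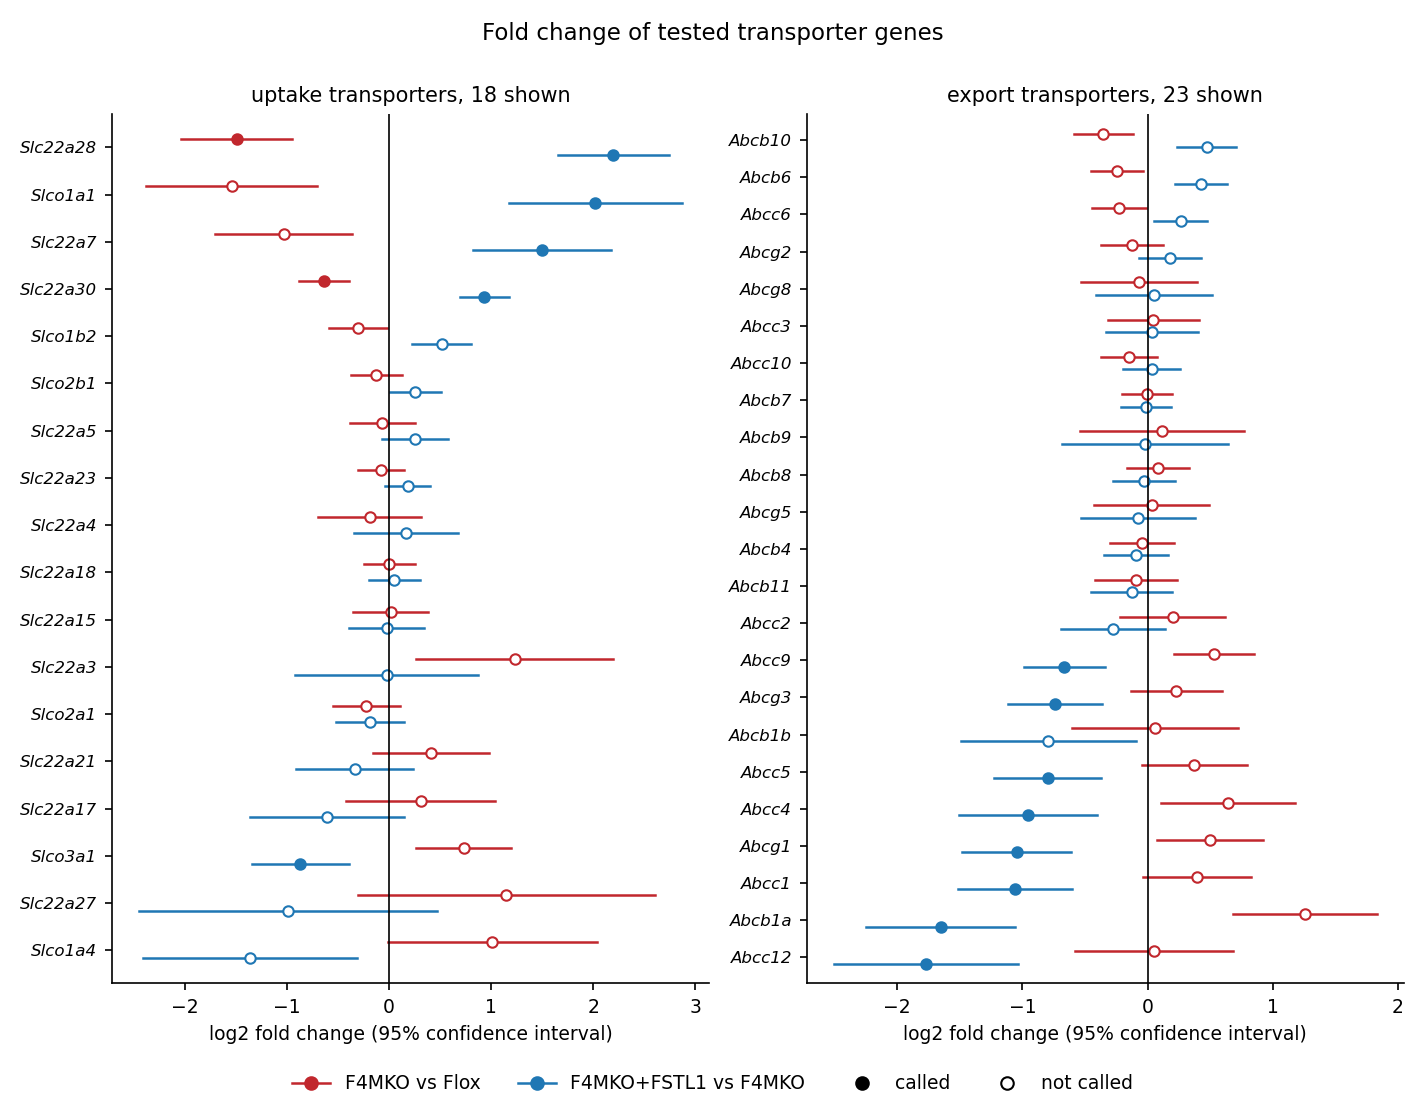
Log2 fold change with its 95% confidence interval for the tested uptake genes (left) and export genes (right) reported here, F4MKO against Flox in red and F4MKO+FSTL1 against F4MKO in blue, which share the F4MKO libraries. Filled points are called; 4 uptake genes lie to the right and 8 export genes to the left as filled blue points, and the 2 filled red points are Slc22a28 and Slc22a30.

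Of 4 tested organic anion carriers of the Slc22 family, 3 were called higher after FSTL1, beside 3.21% of all genes called higher. They made up 3 of the 5 uptake calls. Slc22a28, a carrier of this family whose substrates are little known, gave 5.80, 5.37 and 6.79 CPM in Flox, 2.37, 1.21 and 2.75 in F4MKO and 11.1, 9.95 and 8.25 in F4MKO+FSTL1 libraries. Every F4MKO library was below every other library. Slc22a28 fell by 1.49 on the log2 scale in F4MKO against Flox (SE 0.249, adjusted p = 0.0404, 2.81-fold lower) and rose by 2.20 with FSTL1 against F4MKO (SE 0.247, adjusted p = 0.000905, 4.59-fold higher). Its neighbour Slc22a30, expressed at a much higher level, gave 132, 128 and 123 CPM in Flox, 87.8, 75.9 and 82.9 in F4MKO and 158, 177 and 137 in F4MKO+FSTL1 libraries. Again no group overlapped another. Slc22a30 fell by 0.63 in F4MKO (SE 0.111, adjusted p = 0.0437) and rose by 0.94 with FSTL1 (SE 0.111, adjusted p = 0.00107, 1.91-fold higher). The F4MKO against Flox calls did not hold with only the 6 libraries compared (adjusted p = 0.0646 for Slc22a28 and 0.0590 for Slc22a30). With 1 library left out at a time, Slc22a28 was called without F4MKO replicate 2 or 3 and had an adjusted p of 0.0502 to 0.149 without each other library, and Slc22a30 was called without F4MKO+FSTL1 replicate 3 only, with 0.0514 to 0.149 otherwise. The calls after FSTL1 held without each of the 9 libraries in turn.

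Slc22a28 (chromosome 19, 8062209 to 8131982, minus strand) and Slc22a30 (8335371 to 8405111, minus strand) lie in a run of 6 Slc22a genes over 847 kb of GRCm38. Their longest transcripts are 98.9% identical over 1485 aligned bases, so reads may be split between them by the counting, whose treatment of multiply mapped reads is not given in the sources used here. With both counts summed, the pair fell by 0.66 in F4MKO (SE 0.115, adjusted p = 0.0427) and rose by 0.98 with FSTL1 (SE 0.115, adjusted p = 0.000959). Their promoters are shown because the 2 genes moved together and because the windows are as alike as the transcripts: 288 of 294 aligned bases are identical. Each window runs from 250 bases before to 50 bases after the RefSeq start site on GRCm38.p6 and is printed 5′ to 3′ on the gene's strand, chr19:8131933-8132232 for Slc22a28 and chr19:8405056-8405355 for Slc22a30. Capitals mark TTGCNNAA, the letters searched for C/EBP on both strands.
Slc22a28: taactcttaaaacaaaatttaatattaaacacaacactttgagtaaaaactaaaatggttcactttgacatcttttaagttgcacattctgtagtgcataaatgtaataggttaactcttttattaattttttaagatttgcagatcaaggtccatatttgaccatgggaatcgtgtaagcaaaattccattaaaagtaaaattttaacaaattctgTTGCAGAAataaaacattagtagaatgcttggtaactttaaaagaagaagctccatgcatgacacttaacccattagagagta
Slc22a30: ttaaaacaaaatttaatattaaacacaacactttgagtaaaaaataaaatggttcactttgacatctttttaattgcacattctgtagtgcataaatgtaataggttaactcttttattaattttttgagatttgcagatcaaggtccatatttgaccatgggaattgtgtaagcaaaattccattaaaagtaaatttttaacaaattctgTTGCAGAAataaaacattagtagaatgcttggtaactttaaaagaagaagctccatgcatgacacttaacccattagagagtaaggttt
The match lies 33 bases before the start site of Slc22a28 and 39 bases before that of Slc22a30. This motif was found in 10.8% of the 32851 RefSeq promoters of this length and in 7 of the 53 windows of transporter genes. Cebpa, which encodes the hepatocyte factor C/EBPα, gave 482, 342 and 414 CPM in Flox, 281, 324 and 314 in F4MKO and 454, 552 and 449 in F4MKO+FSTL1 libraries, and it rose by 0.66 with FSTL1 (SE 0.141, adjusted p = 0.00823). A match is a description of the letters and not of binding. The part of Cebpa in the Slc22a28 and Slc22a30 results was not tested.

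Slc22a7 (Oat2, a carrier of organic anions and nucleotides) gave 14.0, 10.5 and 26.1 CPM in Flox, 9.59, 7.12 and 8.02 in F4MKO and 30.1, 16.9 and 23.1 in F4MKO+FSTL1 libraries. The F4MKO libraries were the lowest 3, and Flox replicate 3 was higher than the lower 2 of the F4MKO+FSTL1 libraries. Slc22a7 rose by 1.50 with FSTL1 against F4MKO (SE 0.307, adjusted p = 0.00671, 2.83-fold higher). Against Flox, F4MKO differed by -1.03 (SE 0.306, adjusted p = 0.143), which was called by DESeq2 (adjusted p = 0.0209) and without the filter on low counts (adjusted p = 0.00765). The remaining tested member of this class, Slc22a27, was near the detection limit with as few as 5 reads in a library. It shares 96.8% of 2088 aligned transcript bases with the untested Slc22a29.

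Slco1a1 and Slco1a4, neighbours on chromosome 6, differed between groups with opposite signs, although only Slco1a1 was called. Slco1a1 (Oatp1a1, a carrier of organic anions and steroid conjugates) gave 216, 255 and 249 CPM in Flox, 117, 28.5 and 102 in F4MKO and 340, 393 and 272 in F4MKO+FSTL1 libraries, with no overlap between groups. F4MKO replicate 2, at 28.5 CPM, was far below the other F4MKO libraries. Slco1a1 rose by 2.02 with FSTL1 against F4MKO (SE 0.386, adjusted p = 0.00499, 4.06-fold higher), and without F4MKO replicate 2 the rise was 1.62 and still called. F4MKO differed from Flox by -1.54 (SE 0.381, adjusted p = 0.0919). Without F4MKO replicate 2, this difference was smaller, at -1.14, and was called (adjusted p = 0.0362), as it was without the filter on low counts.

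Slco1a4 (Oatp1a4, a carrier of bile acids and cardiac glycosides) gave 10.9, 28.9 and 16.5 CPM in Flox, 16.5, 43.9 and 53.7 in F4MKO and 23.9, 8.36 and 12.1 in F4MKO+FSTL1 libraries. All groups overlapped, and F4MKO replicate 1 was within the Flox range. Its difference of -1.36 between F4MKO+FSTL1 and F4MKO (SE 0.477, adjusted p = 0.0641) was not called, and it was called without F4MKO replicate 1 (-1.72, adjusted p = 0.0280), without F4MKO+FSTL1 replicate 1 (-1.89, adjusted p = 0.0311) or without the filter on low counts (-1.35, adjusted p = 0.00318). Per length, the ratio of Slco1a1 to Slco1a4 was 24.04, 10.7 and 18.4 in Flox, 8.63, 0.788 and 2.31 in F4MKO and 17.3, 57.2 and 27.4 in F4MKO+FSTL1 libraries. Thus Slco1a4 exceeded Slco1a1 in a single library, F4MKO replicate 2, and no F4MKO ratio reached those of the other groups.

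Both promoters are printed because the paralogs share 86.3% of 1845 aligned transcript bases and yet their windows gave no alignment (blastn, plus strand). They are chr6:141946913-141947212 for Slco1a1 and chr6:141856171-141856470 for Slco1a4, both on the minus strand of GRCm38.p6 and again taken from the RefSeq table. A search for STAT5 (TTCNNNGAA), HNF1 (GTTAAT), HNF4 (CAAAGTCCA), C/EBP (TTGCNNAA) and NRF2 (TGACNNNGC) letters on both strands found none in either window, so no base is in capitals.
Slco1a1: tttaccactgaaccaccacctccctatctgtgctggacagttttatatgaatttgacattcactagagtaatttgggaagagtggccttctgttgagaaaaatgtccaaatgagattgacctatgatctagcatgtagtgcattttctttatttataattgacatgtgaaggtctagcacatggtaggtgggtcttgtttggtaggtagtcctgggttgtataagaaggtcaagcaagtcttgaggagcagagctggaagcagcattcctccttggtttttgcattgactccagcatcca
Slco1a4: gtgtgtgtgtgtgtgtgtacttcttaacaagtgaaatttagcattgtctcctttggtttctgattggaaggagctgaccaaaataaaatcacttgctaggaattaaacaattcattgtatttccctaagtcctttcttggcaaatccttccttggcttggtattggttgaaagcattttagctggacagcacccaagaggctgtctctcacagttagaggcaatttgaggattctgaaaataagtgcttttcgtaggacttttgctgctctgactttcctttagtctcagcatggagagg
Of all 32851 promoters of this length, 8.30% held the STAT5 letters, 7.10% the HNF1 letters, 0.475% the HNF4 letters and 12.4% the NRF2 letters. That no match was found says only that these letters are not in these windows.

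Male-biased liver genes were measured beside Slco1a1. Of 8 such genes (Cyp4a12a, Cyp4a12b, Hsd3b5, Mup7, Mup20, Cyp2d9, Elovl3 and Cyp7b1), all 8 had a negative log2 fold change in F4MKO against Flox. None was called and 6 had an unadjusted p under 0.05, as had 16.9% of all genes. All 8 had a positive value with FSTL1 against F4MKO, and Hsd3b5, Mup7 and Cyp7b1 were called, beside 3.21% of all genes called higher. Their summed level was 3565 to 5171 CPM in Flox, 1096 to 2753 in F4MKO and 6286 to 9183 in F4MKO+FSTL1 libraries. Mup7 made up most of the sum with FSTL1, at 3634, 5787 and 5217 CPM against 1264, 650 and 1882 in Flox. In F4MKO+FSTL1 against Flox, none of the 8 was called, 6 had positive values, and Mup20 (-0.52) and Elovl3 (-0.31) had negative ones. F4MKO replicate 2 was the lowest for Slco1a1 and for Mup7 (6.78 CPM, against 191 and 259 in the other F4MKO libraries). Of 3 tested female-biased genes, Cyp2a4 was called lower with FSTL1, beside 11.2% of all genes. The 8 listed summed to 3.33 to 14.1 CPM in Flox, 8.30 to 85.6 in F4MKO and 2.85 to 6.11 in F4MKO+FSTL1 libraries. The part of sex-biased regulation in the Slco1a1 result was not tested.

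Slco1b2, at a high level, differed by smaller folds. It gave 828, 999 and 883 CPM in Flox, 776, 729 and 690 in F4MKO and 1134, 1119 and 884 in F4MKO+FSTL1 libraries. Every F4MKO library was below every other, with -0.30 against Flox (SE 0.130, adjusted p = 0.270) and 0.52 with FSTL1 (SE 0.130, adjusted p = 0.0174, 1.43-fold), short of the fold required. It crossed that fold, at 0.63, without F4MKO+FSTL1 replicate 3 (adjusted p = 0.0101).

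Slco2b1, a broad Oatp of the sinusoidal membrane, ran from 166 to 184 CPM in Flox, from 148 to 167 in F4MKO and from 174 to 223 in F4MKO+FSTL1 libraries, and differed by 0.26 with FSTL1 against F4MKO (95% confidence interval 0.01 to 0.51, adjusted p = 0.133). Slc22a5 (Octn2), the carnitine carrier, ran from 37.7 to 40.3 CPM in Flox, from 29.1 to 44.1 in F4MKO and from 38.0 to 50.5 in F4MKO+FSTL1 libraries, a difference of 0.26 with FSTL1 (-0.06 to 0.57, adjusted p = 0.236). Slc22a18, an organic cation transporter-like gene, differed by 0.05 (-0.20 to 0.30), and the sign turned without F4MKO replicate 1 (-0.046) or F4MKO+FSTL1 replicate 1 (-0.016). None of these was called in any comparison.

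Slco3a1 (Oatp3a1), a carrier of prostaglandins and thyroid hormone that many tissues express, was the uptake gene called lower after FSTL1. It gave 3.30, 3.97 and 4.17 CPM in Flox, 8.49, 5.23 and 5.27 in F4MKO and 3.88, 3.46 and 3.08 in F4MKO+FSTL1 libraries, and the F4MKO libraries were the highest 3. Slco3a1 fell by 0.87 with FSTL1 against F4MKO (SE 0.215, adjusted p = 0.0164), and with Abcc4 it was among the called genes nearest to the threshold. The call was lost without F4MKO replicate 1 (-0.60, adjusted p = 0.0649) or without F4MKO+FSTL1 replicate 2 (-0.86, adjusted p = 0.0586). In F4MKO against Flox it differed by 0.73 (SE 0.212, adjusted p = 0.130).

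**Figure D4:**
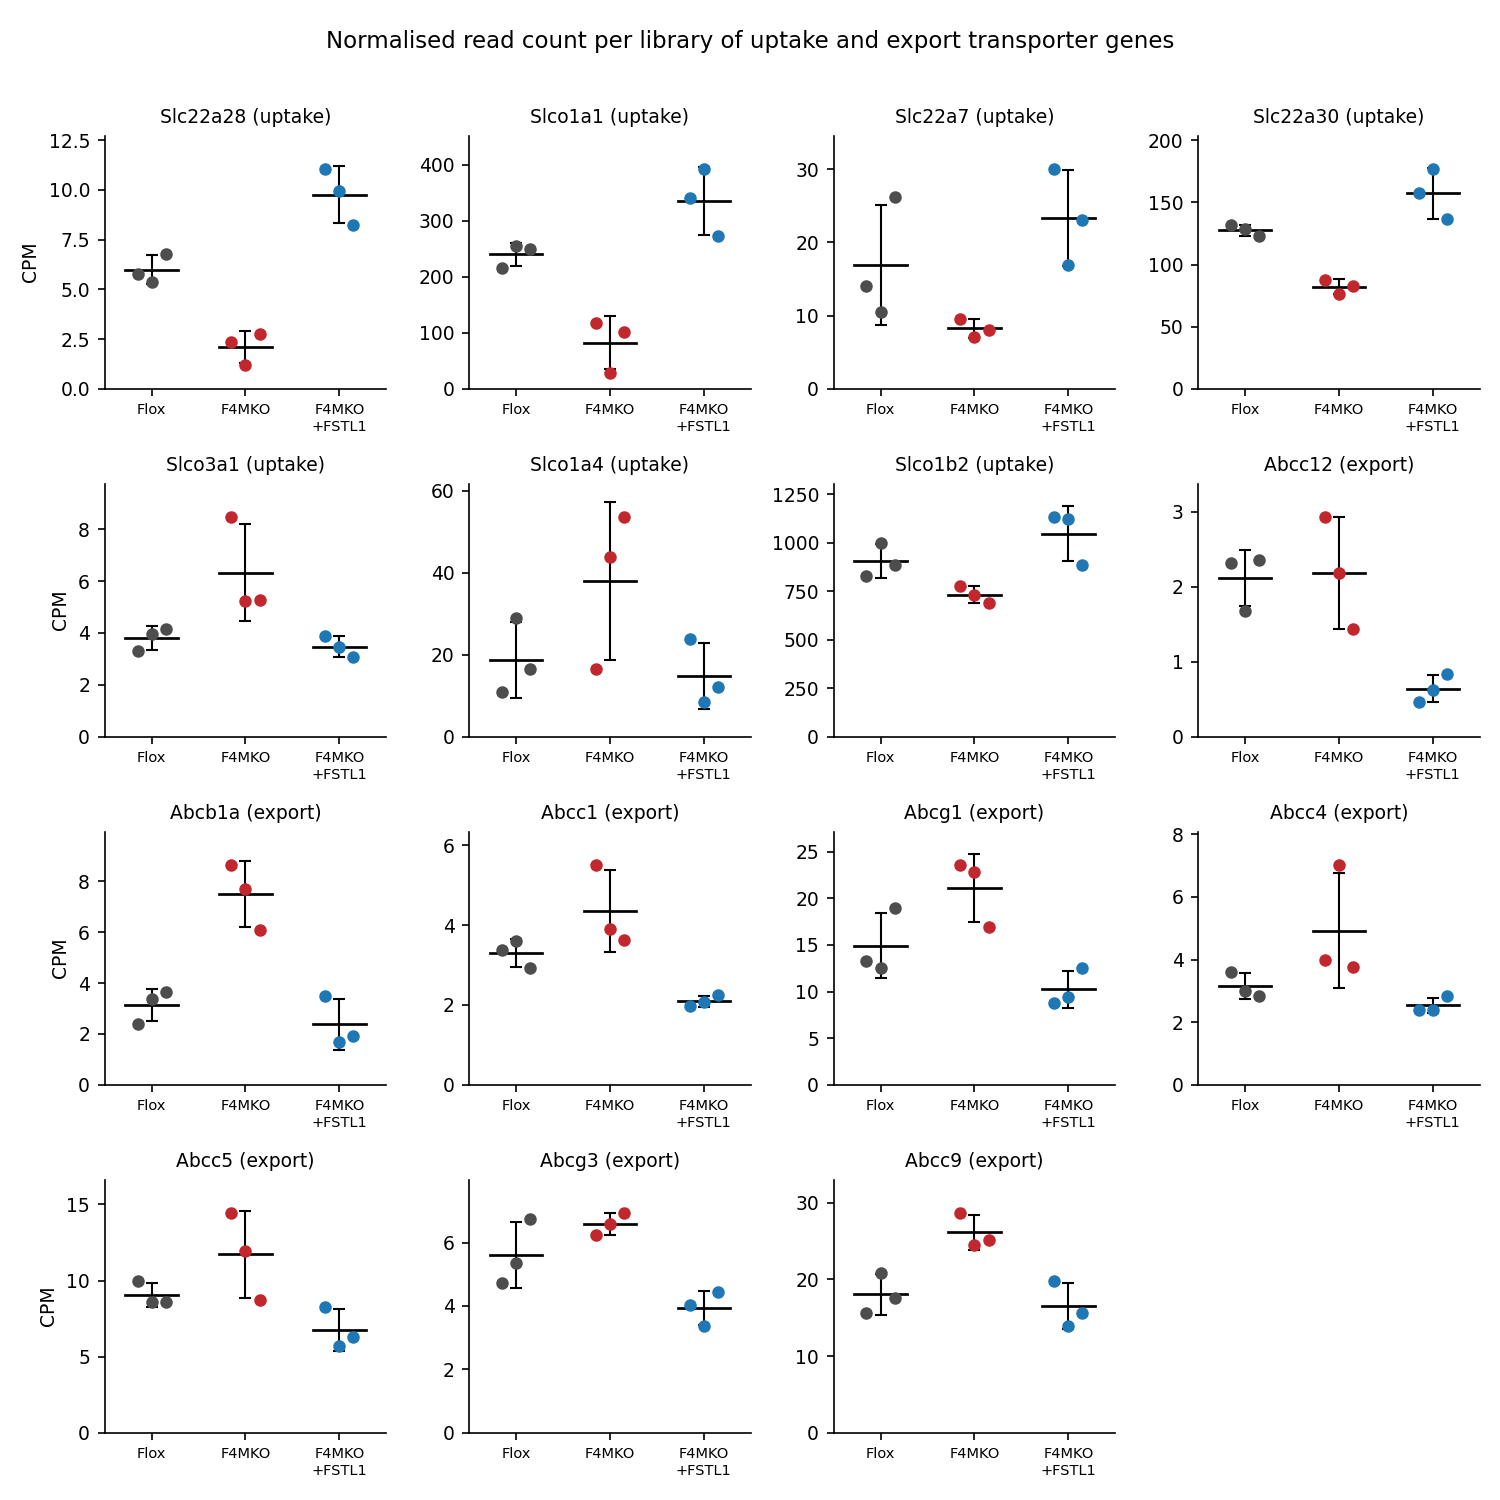
CPM per library of the 13 genes called between F4MKO+FSTL1 and F4MKO, with Slco1a4 and Slco1b2 added, by group. Points are libraries, bars are the mean ± SD of 3 mice and each axis starts at 0; Slc22a28, Slco1a1, Slc22a7 and Slc22a30 are lowest in F4MKO, and Abcb1a is highest in F4MKO, at 6.11 to 8.67 CPM.

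On the export side, the 8 genes called lower after FSTL1 were of low level. Together they held 1.37% to 3.32% of the summed export level per length, whereas the 5 called uptake genes held 10.2% to 28.2% of the summed level of the 31 uptake genes. Abcb1a, which encodes P-glycoprotein, gave 2.41, 3.36 and 3.64 CPM in Flox, 8.67, 7.71 and 6.11 in F4MKO and 3.50, 1.68 and 1.93 in F4MKO+FSTL1 libraries. The F4MKO libraries were apart from both other groups, which overlapped each other. Abcb1a fell by 1.65 with FSTL1 against F4MKO (SE 0.272, adjusted p = 0.00272, 3.14-fold lower), a call kept without each of the 9 libraries. In F4MKO against Flox it was 2.39-fold higher without passing the threshold (log2 1.26, SE 0.262, adjusted p = 0.0610), and it was called by DESeq2 (adjusted p = 0.00127) and without the filter on low counts (adjusted p = 0.00186).

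Abcb1b, the other P-glycoprotein gene, is 87.2% identical to Abcb1a over 4032 transcript bases. It gave 2.76, 3.44 and 2.93 CPM in Flox, 4.88, 1.97 and 2.63 in F4MKO and 1.59, 1.63 and 2.30 in F4MKO+FSTL1 libraries, so F4MKO overlapped both other groups. Its difference with FSTL1 against F4MKO was -0.79 (SE 0.318, adjusted p = 0.0991) and was called without F4MKO replicate 2 (-1.04, adjusted p = 0.0348). Per length, Abcb1a exceeded Abcb1b in every library, by 1.23 to 5.71 times.

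Of 8 multidrug resistance proteins of the Abcc family, 4 were called lower after FSTL1, beside 11.2% of all genes called lower. Abcc12 (Mrp9), whose substrates are not settled, gave 2.32, 1.68 and 2.35 CPM in Flox, 2.94, 2.18 and 1.44 in F4MKO and 0.467, 0.625 and 0.836 in F4MKO+FSTL1 libraries. It rested on 10, 13 and 16 reads in the F4MKO+FSTL1 libraries, which lay below every other library. Abcc12 fell by 1.77 (SE 0.335, adjusted p = 0.00480, 3.41-fold lower), while Flox and F4MKO overlapped. Against Flox, F4MKO+FSTL1 differed by -1.72 (SE 0.338, adjusted p = 0.0777), called by DESeq2 (adjusted p = 0.00255) and without the filter on low counts (adjusted p = 0.00406). Abcc1 (Mrp1), a glutathione-dependent exporter, gave 3.39, 3.61 and 2.93 CPM in Flox, 5.52, 3.89 and 3.63 in F4MKO and 1.96, 2.07 and 2.25 in F4MKO+FSTL1 libraries, and no group overlapped another. Abcc1 fell by 1.06 with FSTL1 against F4MKO (SE 0.207, adjusted p = 0.00540), and against Flox it differed by -0.66 (SE 0.210, adjusted p = 0.203).

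Abcc4 (Mrp4), a sinusoidal pump known to rise in cholestasis, gave 3.61, 2.99 and 2.84 CPM in Flox, 3.997, 7.04 and 3.75 in F4MKO and 2.38, 2.40 and 2.82 in F4MKO+FSTL1 libraries. F4MKO replicate 2 stood well above the other 2, and all 3 were above Flox. Abcc4 fell by 0.96 with FSTL1 against F4MKO (SE 0.251, adjusted p = 0.0207), and the call was lost without F4MKO replicate 2 (-0.62, adjusted p = 0.0636), F4MKO+FSTL1 replicate 1 (-0.91, adjusted p = 0.0615) or F4MKO+FSTL1 replicate 2 (-0.91, adjusted p = 0.0769). Abcc5 (Mrp5), an exporter of cyclic nucleotides, gave 9.94, 8.60 and 8.61 CPM in Flox, 14.5, 11.9 and 8.74 in F4MKO and 8.27, 5.67 and 6.27 in F4MKO+FSTL1 libraries, with F4MKO replicate 3 within the Flox range. It fell by 0.80 with FSTL1 (SE 0.195, adjusted p = 0.0153), and the call was lost without F4MKO replicate 1 (-0.62, adjusted p = 0.0676) or F4MKO+FSTL1 replicate 2 (-0.68, adjusted p = 0.0704).

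Abcc9, the sulfonylurea receptor subunit of potassium channels in vessel and mesenchymal cells and not itself a pump, gave 15.6, 20.9 and 17.6 CPM in Flox, 28.7, 24.5 and 25.2 in F4MKO and 19.8, 14.0 and 15.7 in F4MKO+FSTL1 libraries, highest in every F4MKO library. It fell by 0.66 with FSTL1 (SE 0.147, adjusted p = 0.00981). Abcg1, which exports cholesterol from macrophages and other cells, gave 13.3, 12.5 and 19.0 CPM in Flox, 23.6, 22.8 and 16.9 in F4MKO and 8.74, 9.42 and 12.5 in F4MKO+FSTL1 libraries, with all F4MKO libraries above those with FSTL1 and overlapping Flox. It fell by 1.05 with FSTL1 (SE 0.197, adjusted p = 0.00470). Abcg3, a rodent relative of Abcg2 with an unsettled role, gave 4.73, 5.37 and 6.75 CPM in Flox, 6.23, 6.57 and 6.95 in F4MKO and 4.02, 3.36 and 4.44 in F4MKO+FSTL1 libraries, with F4MKO+FSTL1 below the other 2 groups. It fell by 0.74 with FSTL1 (SE 0.172, adjusted p = 0.0120). Without F4MKO+FSTL1 replicate 2, neither Abcc9 (-0.55, adjusted p = 0.0486, short of the fold) nor Abcg3 (-0.63, adjusted p = 0.0580) was called, whereas Abcg1, Abcc1 and Abcc12 were called without each library in turn.

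Markers of non-hepatocytes also differed between these groups. Between F4MKO+FSTL1 and F4MKO, 4 of 5 tested cholangiocyte, 4 of 6 stellate cell, 3 of 6 macrophage and 4 of 4 proliferation markers were called lower. Of all genes, 11.2% were called lower. None of 5 hepatocyte, 6 endothelial and 4 lymphocyte markers was called. Cholangiocyte markers (Krt19, Krt7, Sox9, Epcam and Spp1) summed to 50.7 to 88.9 CPM in Flox, 160 to 430 in F4MKO and 36.1 to 53.8 in F4MKO+FSTL1 libraries. Stellate cell markers summed to 332 to 378, 406 to 500 and 222 to 303 CPM, macrophage markers to 287 to 433, 289 to 334 and 176 to 261 CPM, and proliferation markers to 10.3 to 18.2, 21.6 to 28.8 and 3.32 to 6.48 CPM. Every F4MKO library was above every other library for the summed cholangiocyte, stellate and proliferation markers, whereas the macrophage sums of F4MKO and Flox overlapped. Among the called export genes, F4MKO was likewise highest for Abcb1a, Abcc1, Abcc4 and Abcc9. For Abcc5, Abcc12, Abcg1 and Abcg3 it overlapped Flox. The sum of the adipocyte markers went the other way, at 17.8 to 22.2 CPM in Flox, 14.8 to 23.4 in F4MKO and 25.2 to 87.4 in F4MKO+FSTL1 libraries. Of 2 tested adipocyte markers, Cfd (adipsin) was called higher with FSTL1, beside 3.21% of all genes. Fabp4 was not called and had a log2 fold change of -0.09, so the markers did not move as a set. Cfd gave 0.354, 0.0838 and 0.399 CPM in F4MKO and 65.4, 42.4 and 4.65 in F4MKO+FSTL1 libraries. The defining markers Adipoq and Plin1 were at or near 0 in every library, with at most 0.104 CPM. In F4MKO against Flox, 2 of 5 cholangiocyte markers, Epcam and Spp1, were called higher, where 0.271% of all genes were called. The lymphocyte gene Cd2 was at 0 in at least 1 library, and the kidney tubule markers summed to 0 in Flox replicate 1 and F4MKO replicate 3. The part of other cell types in the transporter results was not tested.

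Of the canalicular pumps, Abcb11, Abcb4, Abcc2, Abcg2, Abcg5 and Abcg8 were not called in any comparison, unlike Abcb1a above. Abcb11 gave 543, 530 and 457 CPM in Flox, 475, 569 and 391 in F4MKO and 475, 456 and 383 in F4MKO+FSTL1 libraries, and its difference with FSTL1 against F4MKO was -0.13 (95% confidence interval -0.45 to 0.20). For Abcb4 the difference was -0.09 (-0.34 to 0.17), and its F4MKO+FSTL1 libraries (403 to 416 CPM) lay just below those of F4MKO (420 to 453 CPM). Abcc2 (Mrp2), the canalicular pump of bilirubin conjugates, ranged more widely, from 199.9 to 349 CPM in Flox, 269 to 320 in F4MKO and 208 to 286 in F4MKO+FSTL1 libraries, a difference of -0.28 (-0.69 to 0.14). Abcg2, a canalicular drug and urate pump, differed by 0.18 (-0.06 to 0.43). None of these had an adjusted p under 0.05 in any comparison, and the intervals of Abcb11, Abcb4 and Abcg2 exclude a change of the size required for a call. The interval of Abcc2 does not.

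Abcg5 and Abcg8 act as an obligate heterodimer that secretes cholesterol and plant sterols into bile, and their libraries went up and down together. Abcg5 gave 132, 220 and 206 CPM in Flox, 149, 229 and 193 in F4MKO and 189, 147 and 205 in F4MKO+FSTL1 libraries, and Abcg8 gave 134, 224 and 200.5, 139, 227 and 167, and 201, 153 and 198 CPM in the same order. Flox replicate 1 and F4MKO replicate 1 were low for both genes. Per length the ratio of Abcg5 to Abcg8 stayed between 1.30 and 1.60 in the 9 libraries. The differences with FSTL1 against F4MKO were -0.08 (-0.53 to 0.38) and 0.05 (-0.41 to 0.52). RefSeq lists 2 start sites of Abcg8. The start site at 84683121 lies 110 bp from that of Abcg5 on the opposite strand, and the other, at 84676302, is also the GENCODE start and lies inside Abcg5. The genes therefore overlap in that annotation, and since the strand setting of the counting is not given, reads in the overlap may be counted for either gene or neither. The window of Abcg5 is printed because its 300 bases share 209 with the Abcg8 window at 84683121 and 0 with the one at 84676302 (chr17:84682962-84683261, minus strand, GRCm38.p6, RefSeq). None of the 5 motifs was found in it.
Abcg5: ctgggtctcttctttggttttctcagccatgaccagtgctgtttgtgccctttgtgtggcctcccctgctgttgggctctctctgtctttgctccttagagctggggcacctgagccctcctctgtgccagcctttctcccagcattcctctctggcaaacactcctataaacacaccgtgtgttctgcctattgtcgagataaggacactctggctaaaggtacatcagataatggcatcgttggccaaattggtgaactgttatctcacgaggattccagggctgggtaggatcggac

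At the sinusoidal side, Abcc3 (Mrp3), which returns conjugates and bile acids to blood, differed by 0.04 with FSTL1 against F4MKO (-0.33 to 0.40), and its ranges of 183 to 231 CPM in Flox, 183 to 261 in F4MKO and 190 to 276 in F4MKO+FSTL1 libraries overlapped. Abcc6, a hepatic pump needed for ATP release and known for its loss in pseudoxanthoma elasticum, gave 179, 197 and 199.5 CPM in Flox, 156, 170 and 166 in F4MKO and 209, 200.1 and 181 in F4MKO+FSTL1 libraries. The F4MKO libraries were the lowest 3, with -0.23 against Flox (SE 0.0981, adjusted p = 0.277) and 0.26 with FSTL1 (SE 0.0981, adjusted p = 0.0783), which was not called. Among Abcb transporters of intracellular membranes, Abcb6, a porphyrin transporter, gave 88.0, 79.1 and 85.9 CPM in Flox, 64.4, 77.9 and 71.3 in F4MKO and 92.3, 99.7 and 95.4 in F4MKO+FSTL1 libraries. It and Abcb10, a mitochondrial protein of haem synthesis, were higher with FSTL1 at adjusted p of 0.0101 and 0.0116 but by log2 0.43 and 0.47, under the fold required. Abcb6 was among the uncalled genes nearest to the call.

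**Figure D5:**
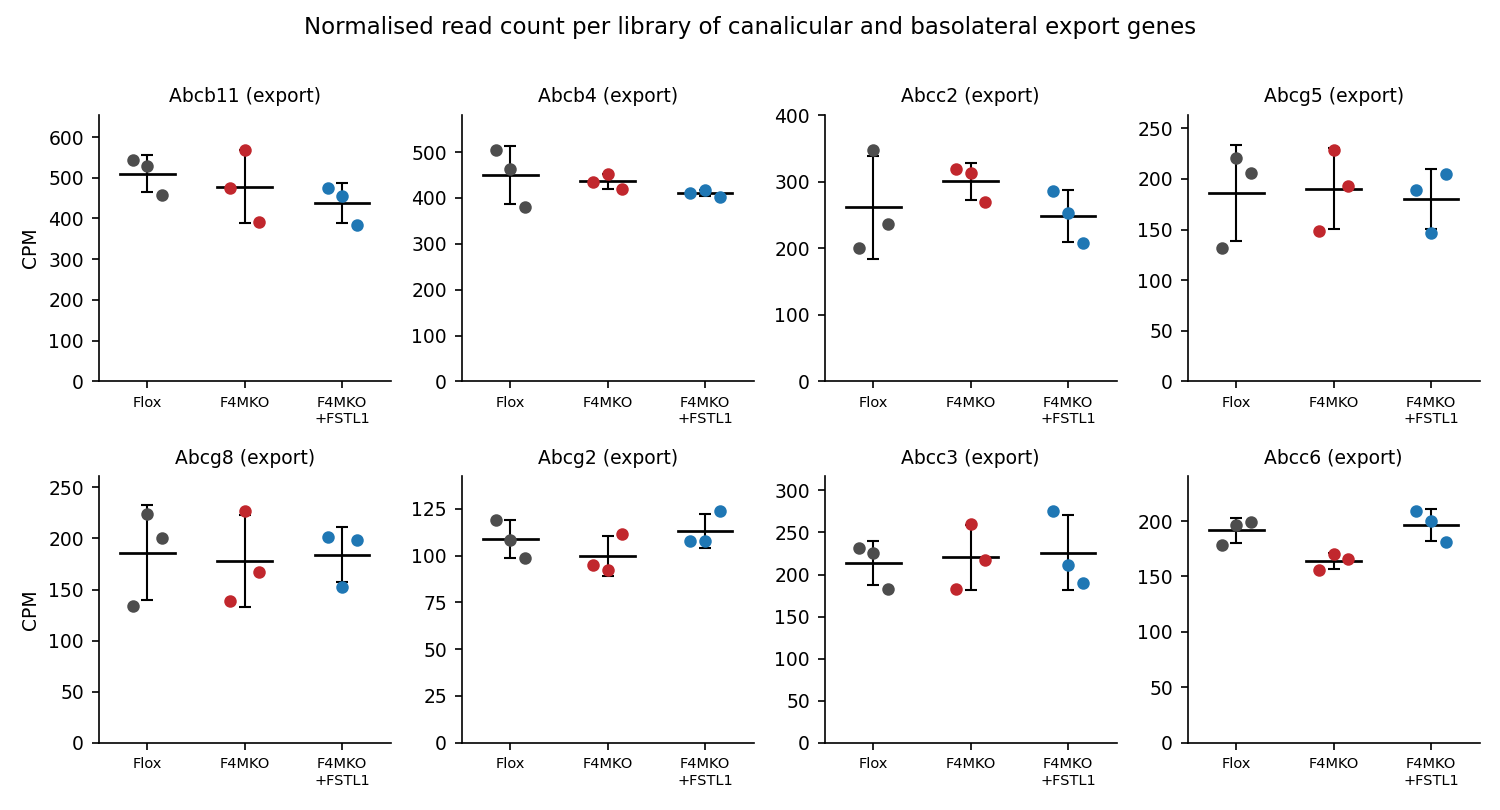
CPM per library of the canalicular export genes Abcb11, Abcb4, Abcc2, Abcg5, Abcg8 and Abcg2 and of the sinusoidal genes Abcc3 and Abcc6, by group. Points are libraries, bars are the mean ± SD of 3 mice and each axis starts at 0; the groups overlap for each gene except Abcc6, whose F4MKO libraries (156 to 170 CPM) are the lowest, and Abcb4, whose F4MKO+FSTL1 libraries (403 to 416 CPM) lie below those of F4MKO.

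Relative to Flox, F4MKO+FSTL1 liver had no called transporter gene. Slc22a28 was 0.71 higher on the log2 scale (SE 0.228, adjusted p = 0.208) and Slc22a30 was 0.30 higher (SE 0.110, adjusted p = 0.262), with every F4MKO+FSTL1 library above every Flox library in both. Slc22a3, with as few as 13 reads in a library, was 1.21 higher (SE 0.448, adjusted p = 0.269), and these groups overlapped. It was also 1.23 higher in F4MKO against Flox (SE 0.440, adjusted p = 0.199). Slco2a1 was 0.41 lower (SE 0.151, adjusted p = 0.269), with every F4MKO+FSTL1 library below every Flox library. On the export side, 16 of 23 tested genes had negative and 7 had positive values. Over all 14379 tested genes, 7202 had negative and 7177 had positive values. Among the negative export genes were Abcc12 (-1.72, SE 0.338, adjusted p = 0.0777) and Abcc1 (-0.66, SE 0.210, adjusted p = 0.203). Abcb1b (-0.73, SE 0.321), Abcg1 (-0.55, SE 0.198) and Abcg3 (-0.51, SE 0.174) had adjusted p between 0.231 and 0.354. A missed threshold at 3 mice per group does not show that these levels are alike.

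Other carriers and partners of the pathway were taken from lists of related genes. Of 15 tested further organic ion and bile acid carriers, 5 were called after FSTL1, 2 higher and 3 lower, beside 14.4% of all genes called. Slc10a1 (Ntcp), the sodium-dependent bile acid uptake carrier, gave 413, 515 and 590 CPM in Flox, 292, 335 and 356 in F4MKO and 501, 547 and 582 in F4MKO+FSTL1 libraries, lowest in F4MKO. It rose by 0.73 with FSTL1 (SE 0.142, adjusted p = 0.00524), and the phosphate and urate carrier gene Slc17a3 rose by 0.83 (SE 0.147, adjusted p = 0.00372). Slc17a4 fell by 0.80 (SE 0.168, adjusted p = 0.00753) and the nucleoside carrier gene Slc28a2 fell by 1.16 (SE 0.258, adjusted p = 0.00981). Slc51b, a subunit of a basolateral bile acid exporter, was called lower at 45, 20 and 20 reads in F4MKO and 2, 1 and 1 in F4MKO+FSTL1 libraries. 

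Among canalicular partners, Slc9a3r1, a scaffold that binds canalicular pumps, rose by 0.65 with FSTL1 against F4MKO (SE 0.117, adjusted p = 0.00381), and the cortical linkers Ezr and Msn fell by 0.86 and 0.68. Radixin is the linker of hepatocyte canaliculi, whereas Ezr and Msn are known from cholangiocytes and non-parenchymal cells. Of 18 regulators of transporter genes, Cebpa and Nr1i3 (CAR, the xenobiotic receptor) were called, both higher, beside 14.4% of all genes called in this comparison. Nr1i3 gave 53.1, 88.9 and 116 CPM in Flox, 60.6, 69.6 and 78.8 in F4MKO and 124, 111 and 142 in F4MKO+FSTL1 libraries and rose by 0.85 (SE 0.227, adjusted p = 0.0221). Among 19 tested ABC genes of other subfamilies, 3 fell (Abca3, Abca9 and Abcd2, by 0.59, 0.61 and 1.42) and none rose, a share near the 11.2% of all genes called lower. None of these carriers, partners, regulators or other ABC genes was called between F4MKO and Flox.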

How the data were processed

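Liver RNA of 9 mice (3 per group) was sequenced as 150 bp paired-end reads. Per the submitters' processing notes, reads were trimmed with Trim Galore 0.6.7, aligned to mm10 with HISAT2 2.2.1 and counted with featureCounts 2.0.1, and the authors deposited 1 table of raw counts per gene. The annotation, the strand setting and the treatment of multiply mapped reads are not given in the sources used here. The group labelled WT was taken as the Flox controls.

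From the deposited counts, TMM factors (edgeR 4.0.16, R 4.3.3) were computed over genes that passed edgeR's expression filter (minimum count 10, minimum total 15). All 9 libraries were fitted with edgeR's quasi-likelihood test, and p-values were Benjamini-Hochberg adjusted over the 14379 tested genes. Called means adjusted p under 0.05 and a fold change above 1.5. Each p-value sets a difference between group means against the spread between the libraries within groups. Named genes are all members called in a comparison, 18 textbook hepatocyte transporters whatever their result, the 3 uptake and 3 export genes of highest level per length, the 2 tested members nearest to the call on either side between F4MKO+FSTL1 and F4MKO, and called genes of the related lists (up to 5 a list, by size). Abcb10, Slc22a2, Slc22a3, Slc22a6, Slc22a27, Slco2a1 and the uncalled markers were named after their values were seen. The values of some genes are not reported here, among them 1 uptake gene, which stays in the counts of tested genes and is left out of the sums and figures. The members and all gene lists were chosen with earlier results of these data known.

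Positions and exon lengths are from GENCODE vM21, and promoters from RefSeq (GRCm38.p6). Of the 57 genes, 44 had a RefSeq promoter. Transcripts and promoters were aligned with blastn 2.17.0. DESeq2 1.42.0 with its size factors, no filter, only the 6 libraries compared, a replicate block, tests with other fold thresholds and each library left out were the alternatives. Summing the counts of Slc22a28 and Slc22a30 was added after seeing the data. The fit was tested on simulated data.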

Additional observations from a re-analysis of the deposited data

How the results depend on the processing

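For F4MKO against Flox, the 2 uptake calls became 4 without the filter on low counts (Slc22a7 and Slco1a1 were added), 3 with DESeq2 (Slc22a7 was added), 0 with only the 6 libraries compared, 0 in a test against a fold of 1.5 and 0 to 2 with 1 library left out. The export count of 0 became 1 (Abcb1a) with DESeq2 and 1 without the filter. For F4MKO+FSTL1 against F4MKO, the 8 export calls became 2 (Abcb1a and Abcc12) in the test against a fold of 1.5 and 4 to 8 with 1 library left out, and the 5 uptake calls ranged from 4 to 6. For F4MKO+FSTL1 against Flox, the export count of 0 became 1 (Abcc12) with DESeq2 and 1 without the filter. For 5 uncalled genes of F4MKO+FSTL1 against F4MKO the sign of the log2 fold change turned with 1 library left out. Abcc3 ranged from -0.13 to 0.17, Abcg5 from -0.23 to 0.073, Abcg8 from -0.10 to 0.26, Abcb11 from -0.25 to 0.016 and Slc22a18 from -0.046 to 0.11. The cause was not tested.

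Same-numbered libraries are different mice and were not treated as pairs. The correlations of their deviations ranged from -0.099 to 0.304 and were 0.169, 0.304 and 0.206 for replicate 3, so they do not show that a shared replicate effect is absent. With a replicate block the uptake calls stayed at 2, 5 and 0 and the export calls at 0, 8 and 0. Over all genes, the 39 calls between F4MKO and Flox became 338 with DESeq2, 478 without the filter, 11 with 6 libraries, 134 with the block, 0 in the fold test and 0 to 100 with 1 library left out. The 2070 after FSTL1 became 620 in the fold test, 3001 with no fold threshold (37.1% higher instead of 22.3%) and 1295 to 2216 with 1 library left out. The 1 call against Flox became 284, 379 and 15 with DESeq2, no filter and the block, and 0 to 101 with 1 library left out. Abcc12 and Slc22a28 rested on as few as 10 and 29 reads in a library.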
